A study of Alligator mississippiensis with 17 samples.

Results

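Oxidative phosphorylation subunits encoded in the nucleus were followed through the tooth cycle of the American alligator, complex by complex. They were 73 of the 20703 genes of the deposited table. Membership went by symbol: NDUFA, NDUFB, NDUFC, NDUFS or NDUFV with a digit, SDHA to SDHD, every UQCR symbol, COX4 to COX8 symbols, ATP5 symbols, and CYC1 and CYCS. Of these, 34 belong to complex I, 4 to complex II, 8 to complex III counted with cytochrome c, 14 to complex IV and 12 to complex V. NDUFA4 was counted with complex IV, where it is known to sit in mammals. The remaining 1, ATP5S, matched by name and is not an ATP synthase subunit in mammals. COX5B.1 and ATP5A1W are the table's own names.

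The respiratory chain sits in the inner mitochondrial membrane. Complex I takes electrons from NADH and complex II from succinate, and both pass them to ubiquinone. Complex III hands them to cytochrome c, complex IV gives them to oxygen, and complex V, the ATP synthase, uses the proton gradient that the pumping complexes build. Most subunits are nuclear genes, a few are mitochondrial genes, and several complex IV subunits have alternative isoforms with tissue-specific use in mammals.

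Dental lamina had been dissected at 3 stages, with 5 libraries from the stage before a tooth starts to form (PIS), 3 from the initiation stage (IS) and 4 from the early growth stage (EG). Another 5 libraries came from the replacement teeth themselves (RT). All came from untreated alligators that were 1 year old and kept in the laboratory at 30 degrees. Titles gave the stages, since a separate stage field reads pre-initiation for every sample, replacement teeth included, and was not used. Whether libraries of a group come from different animals is not stated, so the p-values measure the spread between these samples, which may be technical. None of 26 symbols looked for as mitochondrially encoded genes was found in the table, and those subunits were not analysed here.

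The shallowest library had 9667270 alignments (PIS replicate 3) and the deepest 37747400 (EG replicate 4). Values are RPKM, reads scaled by gene length and by the library's alignments, which allow levels of different genes to be compared per length. Fold changes are differences of log2(RPKM + 0.5), and a gene is called where limma's Benjamini-Hochberg adjusted p over all genes tested is under 0.05. The median gene itself moved between groups as deposited, by 0.28 in IS against PIS, 0.34 in EG against PIS, -0.24 in RT against dental lamina and -0.37 in RT against EG (log2). Results are therefore also given after median-ratio scaling, which divides each library by a factor (0.768 to 1.24) that brings the median gene to about the same level everywhere. Backgrounds are shares of all genes tested under 1 scaling. The share of all genes called under both scalings was not counted, so counts of members called under both have no background. Epithelial markers were present in all groups, with summed levels of 9 genes from 86.2 RPKM (PIS replicate 5) to 1141 RPKM in an EG library. Ameloblast markers summed to at most 4.14 RPKM in PIS and 1.02 RPKM in IS, 137 to 2514 RPKM in EG and 50.6 to 5803 RPKM in RT. Odontoblast and bone markers summed to 33190 RPKM in RT replicate 3, 22960 in replicate 4 and 45970 in replicate 5, against 5845 in replicate 1 and 10310 in replicate 2. They were also present in the lamina, at 3803 to 7318 RPKM in PIS, 2964 to 9394 RPKM in IS and 2766 to 4372 RPKM in EG. RT replicate 1 lay within the PIS range.

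All but 1 of the members passed the detection filter of 1 RPKM in at least 3 libraries. The exception, COX6A2, the isoform that striated muscle uses in mammals, reached at most 0.747 RPKM and was not tested, which left 72. Complex I members had mean levels from 10.2 RPKM (NDUFS6, an accessory subunit) to 109.8 RPKM (NDUFB8, of the membrane arm) in EG, with a median of 35.4 RPKM. Complex II members ran from 23.6 RPKM for SDHB, the iron-sulfur subunit, to 71.2 RPKM for SDHD, a membrane anchor. Complex III and cytochrome c ran from 17.4 RPKM for UQCRQ to 64.1 RPKM for UQCRB, both small subunits. Leaving out COX6A2, complex IV ran from 7.32 RPKM for COX7A2L to 169 RPKM for COX8A, and complex V from 42.4 RPKM for ATP5H, of the peripheral stalk, to 147 RPKM for ATP5I, a small membrane subunit. ATP5S stood apart at 4.54 ± 0.59 RPKM in EG (SD, n = 4). NDUFS6 and NDUFB8 were the lowest and highest of complex I in every group, and SDHB and SDHD those of complex II.

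As deposited, most members had their highest mean level in early growth. The highest of the 4 group means was in PIS for 3 members, in IS for 17, in EG for 47 and in RT for 6. The median deviation of all genes from their 17-library means was also highest in EG as deposited. It averaged 0.212 in EG, 0.154 in IS, -0.127 in PIS and -0.142 in RT (log2). After median-ratio scaling the peaks lay in PIS for 25, in IS for 3, in EG for 2 and in RT for 43. Among complex I members the scaled peaks were divided mainly between RT (14) and PIS (15), whereas 6 of 8 complex III, 10 of 14 complex IV and 10 of 12 complex V members then peaked in RT. Peaks were not counted over all genes under either scaling, so these counts have no background and are not a trait shown for the members. By limma's F test among the 4 groups, 45 of 72 members differed as deposited (background 69.1%) and 28 after scaling (background 47.7%), 27 of them in both. The members' share was below that of all genes under each scaling.

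The level of a complex in a library was summarised as the median deviation of its members from their own 17-library means (log2). For complex III this was -0.413 to -0.301 in PIS, 0.00741 to 0.348 in IS, 0.111 to 0.384 in EG and -0.173 to 0.341 in RT, as deposited. No PIS library overlapped any library of the other groups for this complex. After scaling, PIS (-0.371 to -0.0448) overlapped with IS (-0.123 to 0.131) and EG (-0.0855 to 0.0886), and RT (0.208 to 0.344) lay above them all. Complex II as deposited was at -0.31 to -0.149 in PIS, 0.0913 to 0.215 in IS and 0.157 to 0.273 in EG, while RT spread from -0.345 to 0.168 across all of them. The median of all genes separated PIS (-0.251 to -0.0469) from IS (0.0933 to 0.198) and EG (0.169 to 0.276) in the same way, and after scaling complex II in PIS (-0.214 to 0.0503) overlapped with both. For complex I, PIS replicate 5 stood at 0.101, above IS replicates 2 and 3 and EG replicate 4, so PIS overlapped with the later stages. That library also differed in its markers. Its dental epithelium sum was 86.2 RPKM, against 425.6 to 583.1 RPKM in the other PIS libraries. Its red blood cell sum was 261 RPKM, against 2.54 to 9.45 RPKM. The part of its cell content in the overlap was not tested. In RT, replicates 1 and 2 lay high and replicates 3 and 5 low in every complex: in complex I they stood at 0.186 and 0.164 against -0.346 and -0.427. The median of all genes was lowest in the same 2 replicates, at -0.227 and -0.349, against -0.0229 and 0.00119 in replicates 1 and 2. The 2 low replicates also had the highest odontoblast and bone sums. Other marker lists differed between the same replicates. Cell cycle sums were 157.2 and 167.2 RPKM in replicates 3 and 5, against 388.9 and 271.4 RPKM in replicates 1 and 2. Ameloblast sums were 328.9 and 50.6 against 2145 and 5803 RPKM. Endothelial sums (55.1 and 50.1 against 27.6 and 13.7 RPKM) and fibroblast sums (1367 and 1542 against 988.4 and 648 RPKM) were higher. The part of any of these transcripts in the low values was not tested.

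**Figure D1:**
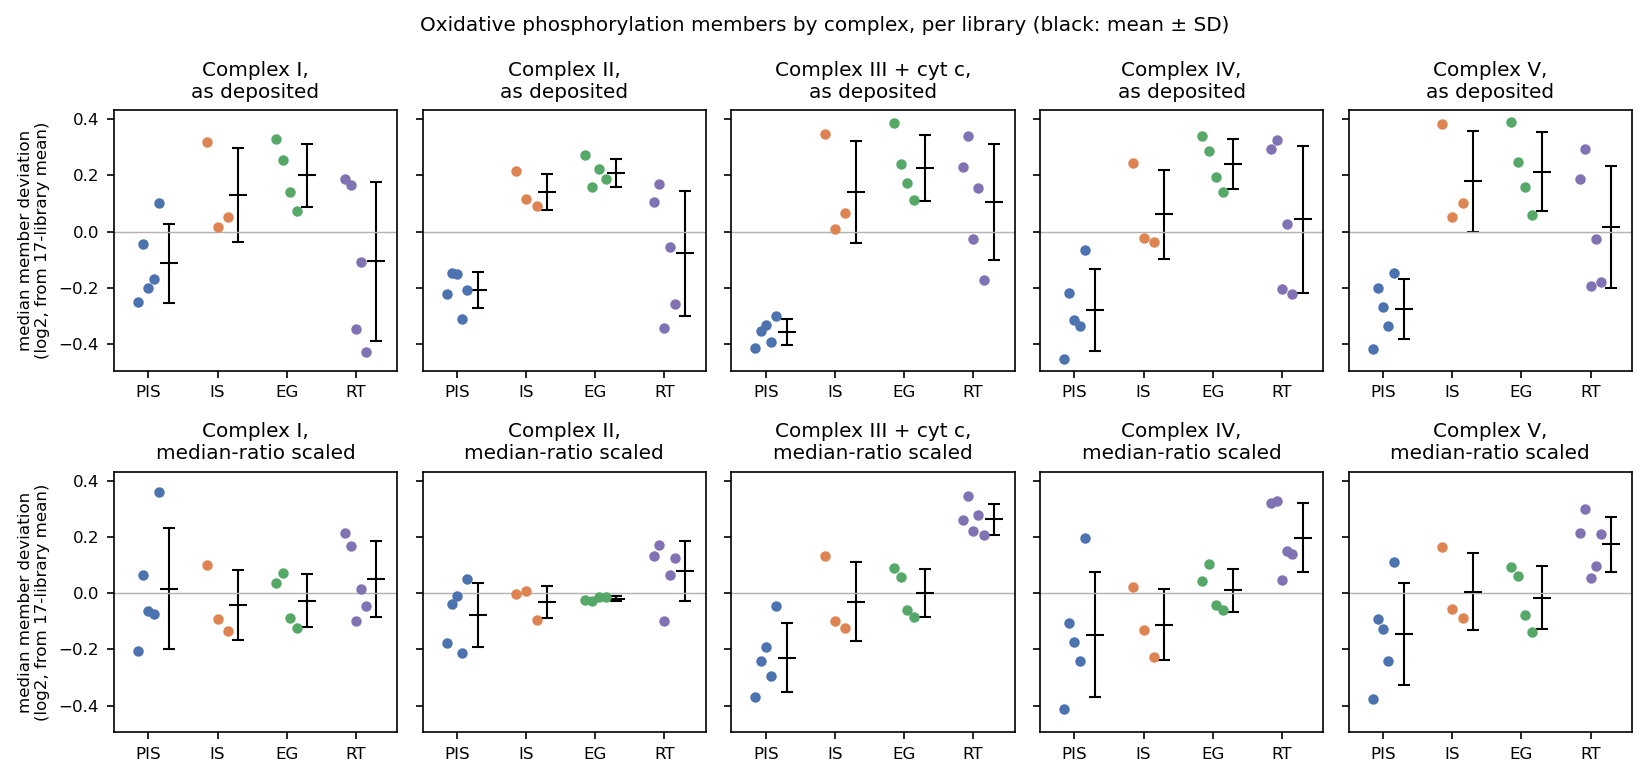
Median deviation of the members of each complex from their 17-library means (log2, y axis) for each library of PIS, IS, EG and RT, as deposited (top) and after median-ratio scaling (bottom). Points are libraries and black marks are the mean ± SD; complex III in RT lies at 0.208 to 0.344 after scaling, above every lamina library.

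Because a library's scale cancels within it, the complexes were also compared inside each library. The median deviation of complex III minus that of complex I was -0.24 ± 0.11 in PIS (SD, n = 5), 0.01 ± 0.02 in IS (n = 3), 0.03 ± 0.03 in EG (n = 4) and 0.21 ± 0.11 in RT (n = 5). The PIS libraries (-0.401 to -0.128) lay below all others. EG (-0.0148 to 0.0561) and IS (-0.00801 to 0.0279) overlapped, and RT lay from 0.0443 to 0.319, above IS and overlapping with EG. Complex IV minus complex I was -0.17 ± 0.03 in PIS, -0.07 ± 0.03 in IS, 0.04 ± 0.02 in EG and 0.15 ± 0.04 in RT, with no overlap between any 2 groups. Complex V minus complex I was -0.16 ± 0.07 in PIS, 0.05 ± 0.01 in IS, 0.01 ± 0.03 in EG and 0.12 ± 0.09 in RT, and complex II minus complex I overlapped between all groups. The group means of complexes III, IV and V, relative to complex I, were thus lowest before initiation and highest in replacement teeth. All 3 differences subtract the same complex I value in each library, so they are not independent of each other. This measure was chosen after the values were seen and is given without a test. With the mean over members in place of the median, complex III minus complex I was again lower in every PIS library (-0.422 to -0.122) than in all others, and RT (0.0646 to 0.335) no longer overlapped with EG (-0.019 to 0.0548). Complex IV minus complex I lost its separation with the mean: EG (-0.0619 to 0.0418) overlapped with IS (-0.0343 to -0.017), with PIS (-0.164 to -0.0165) and with RT (0.0409 to 0.116), and IS with PIS. Only RT against IS and RT against PIS stayed apart.

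**Figure D2:**
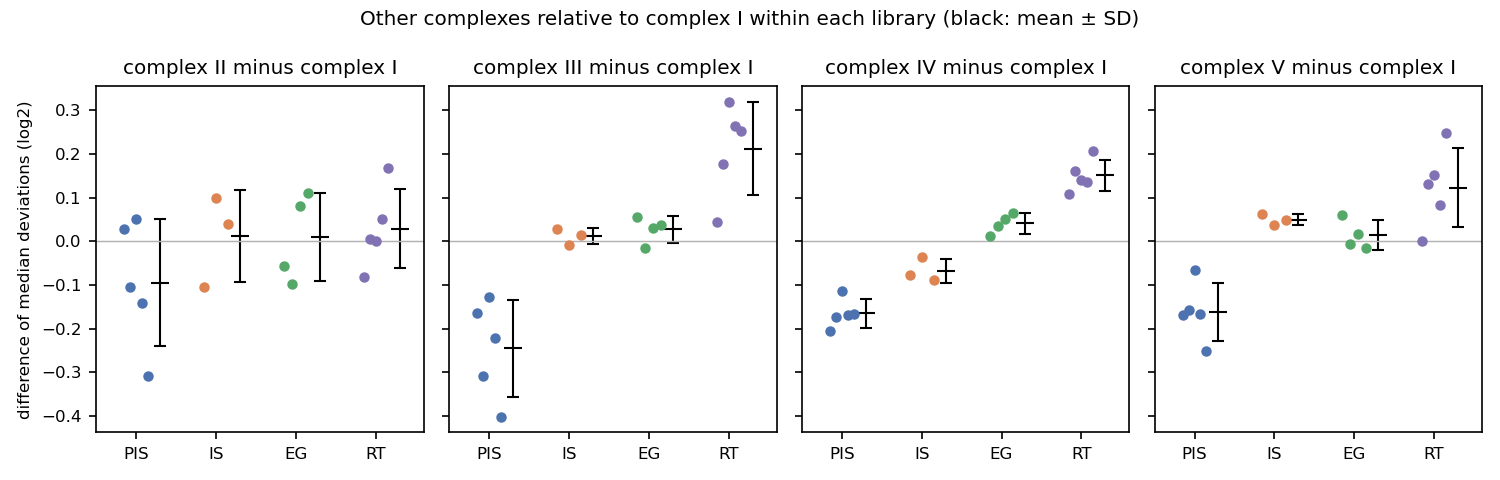
Difference between the median deviation of complex II, III, IV or V and that of complex I in the same library (log2, y axis), by group. Points are libraries and black marks are the mean ± SD; for complex IV minus complex I no 2 groups overlap, with means of -0.165 in PIS, -0.0676 in IS, 0.0406 in EG and 0.15 in RT.

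At initiation, 24 of 72 members were higher than before initiation and 0 were lower, against a background of 25% of all genes called (22.7% higher, 2.25% lower). Libraries did not overlap for 25 members, all higher in IS (background 24.9%). The called members were 8 of complex I, 2 of complex II, 3 of complex III, 6 of complex IV and 5 of complex V. The median member changed by 0.29 and the median gene by 0.28, so the members as a group moved by about as much as the rest of the transcriptome. Cell cycle markers changed with them, 28 of 29 higher, with sums of 354 to 550 RPKM in IS against 148 to 223 RPKM in PIS. Leukocyte markers were higher as well (8 of 8 tested, with sums of 170.5 to 191.5 RPKM in IS against 77.6 to 120 RPKM in PIS), and endothelial (6 of 10) and smooth muscle and mural markers (4 of 6) were lower. The part of these cells in the members' change was not tested. After scaling, 4 members stayed called, all higher (background 11.7%, of which 6.09% higher and 5.64% lower), and the median member was at -0.01. In bulk tissue, a different number of cells of a type and a different amount of RNA per cell cannot be told apart.

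These 4 were ATP5B, CYC1, UQCRC1 and CYCS. ATP5B, the catalytic beta subunit of ATP synthase, stood at 78.7, 67.9 and 66.6 RPKM in IS, against 39.6, 34.1, 41.0, 47.2 and 32.7 RPKM in PIS. Every IS library was above every PIS library, with a difference of 0.87 ± 0.13 on the log2 scale (SE, adjusted p = 0.00138; 0.57 after scaling, adjusted p = 0.0101). CYCS, cytochrome c itself, had 23.4, 19.8 and 22.7 RPKM in IS, against 8.86, 12.2, 14.1, 15.2 and 8.58 RPKM in PIS. It had the greatest rise of the members, 0.90 ± 0.19 (adjusted p = 0.00698; 0.61 after scaling, adjusted p = 0.0442). CYC1, the cytochrome c1 subunit, averaged 24.1 ± 2.0 RPKM in IS and 15.1 ± 1.2 RPKM in PIS (SD, n = 3 and 5), and rose by 0.66 ± 0.11 (SE, adjusted p = 0.00211). UQCRC1, a core protein of complex III, averaged 39.7 ± 4.5 RPKM in IS and 24.7 ± 3.0 RPKM in PIS, and rose by 0.67 ± 0.12 (adjusted p = 0.00278). All 3 of the called members of complex III with cytochrome c kept their call after scaling, while 0 of the 8 called in complex I did. Of all genes, 25% were called as deposited and 11.7% after scaling. How many kept a call under both was not counted, so the contrast between complexes has no background.

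In complex I the greatest rise was that of NDUFS3, a core subunit of the ubiquinone-reducing module (0.66, adjusted p = 0.0143). It was at 46.1, 34.2 and 38.1 RPKM in IS, against 22.1, 29.9, 24.3, 29.2 and 19.5 RPKM in PIS. NDUFB5, of the membrane arm, had the smallest p of complex I (0.57, adjusted p = 0.00998). In complex II the membrane anchor SDHC rose by 0.43 (adjusted p = 0.0118). In complex IV, NDUFA4 rose by 0.67 (adjusted p = 0.00692), COX4I1, the subunit that binds regulatory nucleotides, by 0.73 (adjusted p = 0.0183) and COX7A2L, known in mammals for its part in supercomplexes, by 0.78 (adjusted p = 0.0238). None of these 6 was called after scaling, and of the 6 only NDUFA4 was called without each library in turn. IS replicate 1 weighed on members and other genes alike: without it 6 of 72 members (8.33%) and 7.75% of all genes were called, and the adjusted p became 0.0844 for NDUFS3, 0.0662 for NDUFB5, 0.0622 for SDHC, 0.106 for COX4I1 and 0.13 for COX7A2L. COX4I1 lost its call without IS replicate 3 as well (0.071).

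In early growth, 43 of 72 members were called against PIS, 42 higher and 1 lower (background 50.5%, of which 42.9% higher and 7.58% lower). Among the marker lists, cell cycle (28 of 29), ameloblast (3 of 3), dental epithelium (7 of 9, with 1 lower) and leukocyte (4 of 8) were higher in the same comparison. Lower were endothelium (8 of 10), fibroblast (6 of 9) and smooth muscle and mural (5 of 6, with 1 higher). Their part in the members' change was not tested. By complex the called members were 15 of 34, 4 of 4, 5 of 8, 10 of 13 and 9 of 12, from complex I to complex V. The median log2 fold changes were 0.29 for complex I, 0.34 for II, 0.59 for III, 0.58 for IV and 0.49 for V, beside 0.34 for all genes tested. Within complex I, 6 of the 7 core subunits that carry the redox centres were called (median 0.46), against 9 of the 27 accessory ones (median 0.26). Ranges did not overlap for 34 members higher and 1 lower in EG (background 34.7% and 4.98%). After scaling, 13 members were called, 9 higher and 4 lower (background 32.1%, of which 16.1% higher and 16% lower). Of these, 10 had been called in the same direction as deposited: 3 in complex I, 3 in complex III with cytochrome c, ATP5B and ATP5A1W in complex V, and COX4I1 (higher) and COX4I2 (lower) in complex IV. The 3 called lower after scaling alone were COX7A1, ATP5I and NDUFA3.

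ATP5B led, at 89.8, 81.8, 74.6 and 73.5 RPKM in EG, against 39.6, 34.1, 41.0, 47.2 and 32.7 RPKM in PIS. All EG libraries were above all PIS libraries, a difference of 1.04 ± 0.12 on the log2 scale (SE, adjusted p = 0.0001; 0.68 after scaling, adjusted p = 0.00073). COX4I1 had 113, 102, 94.4 and 88.4 RPKM in EG, against 54.2, 54.5, 47.8, 55.7 and 33.3 RPKM in PIS (1.03 ± 0.18, adjusted p = 0.000733; 0.67 after scaling, adjusted p = 0.00506). CYCS rose by 1.01 ± 0.18 (adjusted p = 0.000786; 0.66 after scaling, adjusted p = 0.00895). UQCRC1, at 41.0 to 44.0 RPKM in EG against 19.6 to 27.0 RPKM in PIS, rose by 0.77 ± 0.11 (adjusted p = 0.000234; 0.42 after scaling, adjusted p = 0.00337). CYC1 rose by 0.66 (adjusted p = 0.000354; 0.31 after scaling, adjusted p = 0.0237).

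The 3 complex I members called under both scalings were NDUFS8, NDUFS3 and NDUFA6. NDUFS8, a core subunit that holds iron-sulfur clusters, had 43.0, 44.4, 46.6 and 45.5 RPKM in EG, against 27.4, 25.4, 25.5, 28.2 and 22.1 RPKM in PIS, and the ranges were far apart. It rose by 0.80 ± 0.11 (SE, adjusted p = 0.000196; 0.44 after scaling, adjusted p = 0.00376). NDUFS3 rose by 0.82 ± 0.15 (adjusted p = 0.00108; 0.46 after scaling, adjusted p = 0.0189). NDUFA6, an accessory subunit named after its values were seen, averaged 52.1 ± 2.0 RPKM in EG and 30.4 ± 3.1 RPKM in PIS (SD, n = 4 and 5; log2 fold change 0.77, adjusted p = 0.000254). The greatest complex II change was that of SDHC (0.57, adjusted p = 0.000611), at 40.4 to 45.3 RPKM in EG against 23.8 to 31.1 RPKM in PIS. The catalytic subunits SDHA (0.27, adjusted p = 0.0301) and SDHB (0.33, adjusted p = 0.0375) were called as deposited with overlapping ranges. After scaling they were at -0.09 and -0.03. The call of SDHA was lost without PIS replicate 2 or 5 or EG replicate 1, 3 or 4 (adjusted p from 0.0587 to 0.0938), and that of SDHB without PIS replicate 1, 3 or 4 or any EG library (0.0510 to 0.0876).

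Other complex IV members rose by less than COX4I1 and lost their calls after scaling: COX6C (0.68, adjusted p = 0.000531), NDUFA4 (0.63, adjusted p = 0.0021), COX5A (0.58, adjusted p = 0.00279), COX7A2 (0.50, adjusted p = 0.0131) and COX6A1 (0.38, adjusted p = 0.0121). In complex V the same held for ATP5G1 (0.63, adjusted p = 0.00182) and ATP5G3 (0.54, adjusted p = 0.00501), which encode the c subunit of the rotor ring. NDUFV1, the flavin-carrying core subunit of complex I, rose by 0.60 (adjusted p = 0.000648; 0.24 after scaling, adjusted p = 0.0734). UQCRFS1, the Rieske iron-sulfur protein, rose by 0.63 (adjusted p = 0.0021; 0.27 after scaling, adjusted p = 0.135).

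Between EG and IS, 0 members were called by limma as deposited (background 2.15%) and 0 after scaling (background 1.84%), the smallest adjusted p was 0.107, and 8 had an unadjusted p under 0.05. The median member differed by 0.09, and libraries did not overlap for 6 members higher and 2 lower in EG (background 14.2% and 8.81%). With array weights, which let libraries count by their estimated quality, 16 members were higher and 2 lower, together 25% of the members beside 31.7% of all genes. Complex I accessory subunit NDUFS5, named after its values were seen, was at 39.5, 39.6, 33.3 and 35.3 RPKM in EG, against 51.5, 45.7 and 49.2 RPKM in IS, without overlap (log2 fold change -0.40, adjusted p = 0.21). COX5B.1, also named after its values were seen, was at 69.1 to 74.5 RPKM in EG against 51.2 to 62.1 RPKM in IS (0.36, adjusted p = 0.154).

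**Figure D3:**
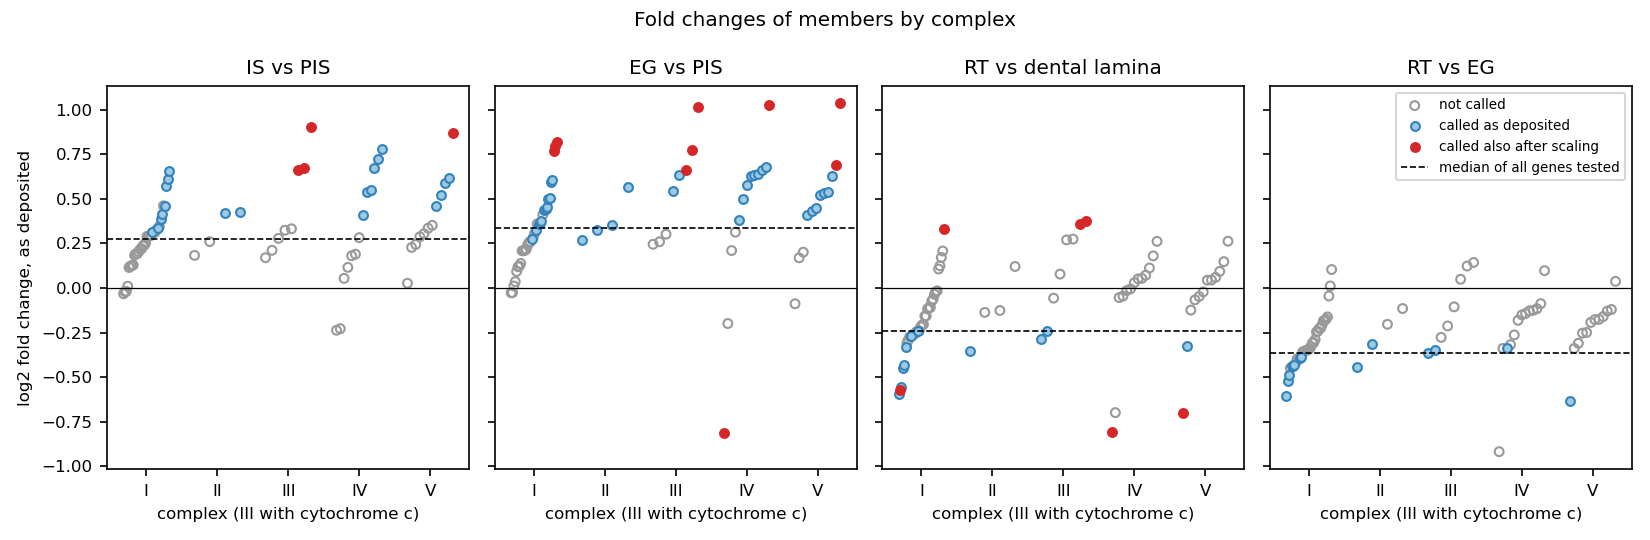
Log2 fold change as deposited (y axis) of each tested member assigned to a complex, in 4 comparisons. Open circles are not called as deposited, and outside IS vs PIS they include members called after scaling alone. Blue circles are called as deposited only and red circles are called after scaling as well. ATP5S is not shown. The dashed line is the median of all genes tested (0.276 in IS vs PIS, 0.339 in EG vs PIS, -0.24 in RT vs dental lamina, -0.366 in RT vs EG); the lowest point in EG vs PIS is COX4I2.

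Replacement teeth, set against the mean of the 3 lamina stages, had 17 members called, 3 higher and 14 lower (background 46.8%, of which 10.5% higher and 36.3% lower). Complex I, with 34 of the 72 members tested, held 8 of the 14 lower members. Of these 8, only NDUFA1 was also called lower after scaling. The median member was at -0.07, above the median gene (-0.24), and by complex the medians were -0.21 for I, -0.13 for II, 0.17 for III, 0.03 for IV and 0.01 for V. After scaling, 27 members were called, 24 higher and 3 lower (background 37.6%, of which 19.6% higher and 18% lower), with medians of 0.03, 0.12, 0.42, 0.26 and 0.26 from complex I to complex V. Thus 6 members kept a call in the same direction: UQCRFS1, UQCRQ and NDUFA6 higher, and ATP5I, COX4I2 and NDUFA1 lower. Every RT library was above every lamina library for 7 members after scaling (background 4.05%): UQCRFS1, NDUFA6, NDUFS1, NDUFA9, SDHC, ATP5O and ATP5C1. The 2 RT libraries that lay low weighed on the count as deposited: it was 10 without RT replicate 3 (36% of all genes called) and 11 without RT replicate 5 (36.2%). Without both, 5 members were higher and 3 lower (24.6% of all genes called), and the median member was at 0.11. With all libraries, ameloblast (4 of 4) and odontoblast and bone markers (5 of 8, with 1 lower) were higher in RT. Lower were cell cycle (12 of 29), endothelium (7 of 10) and smooth muscle and mural markers (5 of 6). Their part in the members' change was not tested.

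ATP5I was at 132, 114, 76.2, 92.5 and 70.3 RPKM in RT, against 137 to 170 RPKM in PIS, 150 to 175 RPKM in IS and 135 to 162 RPKM in EG. It was the only member with every RT library below every lamina library (background 6.08%), at -0.70 ± 0.13 (SE, adjusted p = 0.000405; -0.45 after scaling, adjusted p = 0.00301). NDUFB11, a membrane-arm subunit of complex I, had 66.8, 37.9, 26.0, 35.0 and 26.2 RPKM in RT, against 45.2 to 66.1 RPKM over the lamina libraries. RT replicate 1 stood above all of them and the other 4 below, and the fall of 0.59 ± 0.17 (adjusted p = 0.00872) was not called after scaling (adjusted p = 0.0831) or without RT replicates 3 and 5 (-0.29, adjusted p = 0.204). NDUFB1, of the same arm, was at -0.45 (adjusted p = 0.00221; 0.125 after scaling, and 0.0505 without RT replicates 3 and 5). SDHA, the flavoprotein of complex II, was at 23.8, 26.3, 20.4, 22.4 and 20.5 RPKM in RT, against 22.9 to 28.3 RPKM in PIS, 29.7 to 32.6 RPKM in IS and 28.1 to 33.4 RPKM in EG. It lay at -0.35 ± 0.08 (adjusted p = 0.00214; -0.10 after scaling, adjusted p = 0.168), and its RT range overlapped with that of PIS alone.

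On the higher side, UQCRFS1 was at 38.6, 42.8, 40.0, 44.4 and 42.3 RPKM in RT, against 21.1 to 31.1 RPKM in PIS, 28.1 to 39.4 RPKM in IS and 36.1 to 45.7 RPKM in EG. It was higher by 0.36 ± 0.10 (SE, adjusted p = 0.00668), and 0.61 after scaling (adjusted p = 0.000373), where every RT library was above every lamina library. NDUFA6 was at 0.33 (adjusted p = 0.0168; 0.58 after scaling, adjusted p = 0.000101) and without RT replicate 2 at 0.25 (adjusted p = 0.0567). UQCRQ was at 0.38 (adjusted p = 0.0389; 0.62 after scaling, adjusted p = 0.000657), with 25.6 and 24.2 RPKM in RT replicates 1 and 2 and 13.6 to 18.3 RPKM in the others. Its call as deposited was lost without any 1 of 9 libraries, with an adjusted p of up to 0.122 (without RT replicate 1). UQCRC2, the partner of UQCRC1 in the core of complex III, went the other way, at -0.28 (adjusted p = 0.0251; -0.04 after scaling, adjusted p = 0.734), and was not called without RT replicate 3, 4 or 5 (adjusted p up to 0.0889).

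Against early growth alone, 14 members were lower in RT and 0 higher (background 43.9%, of which 39% lower and 4.89% higher). Of the 14, 8 were among the 34 members of complex I. Every RT library was below every EG library for 7 members (background 30.4%). The median member was at -0.26 and the median gene at -0.37. Cell cycle markers (24 of 29) were lower in RT than in EG, and odontoblast and bone markers (5 of 8) higher. Their part in the members' change was not tested. After scaling, 6 were higher and 0 lower (background 15.7%, of which 9.21% higher and 6.52% lower), 15 had every RT library above every EG library (background 8.85%), and 0 members were called under both. The 6 were UQCRB, UQCRQ, UQCRFS1, NDUFB5, NDUFA6 and NDUFS1. The count as deposited also rested on single libraries: it was 4 without EG replicate 1, RT replicate 3 or RT replicate 5, 7 without EG replicate 2 or 3, 9 without RT replicate 4, 27 without RT replicate 1 and 23 without RT replicate 2. The share of all genes called moved with it, at 30.1% to 30.7% in the fits that gave 4, 31.4% to 36.8% in those that gave 7 or 9, and 48.5% to 48.7% in those that gave 23 or 27. Without both RT replicates 3 and 5 it was 1, beside 11.9% of all genes.

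Of single members, SDHA was lower in RT (-0.44 ± 0.10, SE, adjusted p = 0.00427), with no library overlapping with EG. It was called without each library in turn, as was ATP5I (-0.63, adjusted p = 0.0073), and after scaling the adjusted p was 0.623 for SDHA and 0.217 for ATP5I. COX8A, a small complex IV subunit named after its values were seen, had 159.5, 184, 38.8, 108 and 44.9 RPKM in RT, against 146, 167, 177 and 188 RPKM in EG. The RT libraries were far apart, with replicates 3 and 5 the lowest of all 17, and the log2 fold change of -0.92 was not called (adjusted p = 0.0516).

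**Figure D4:**
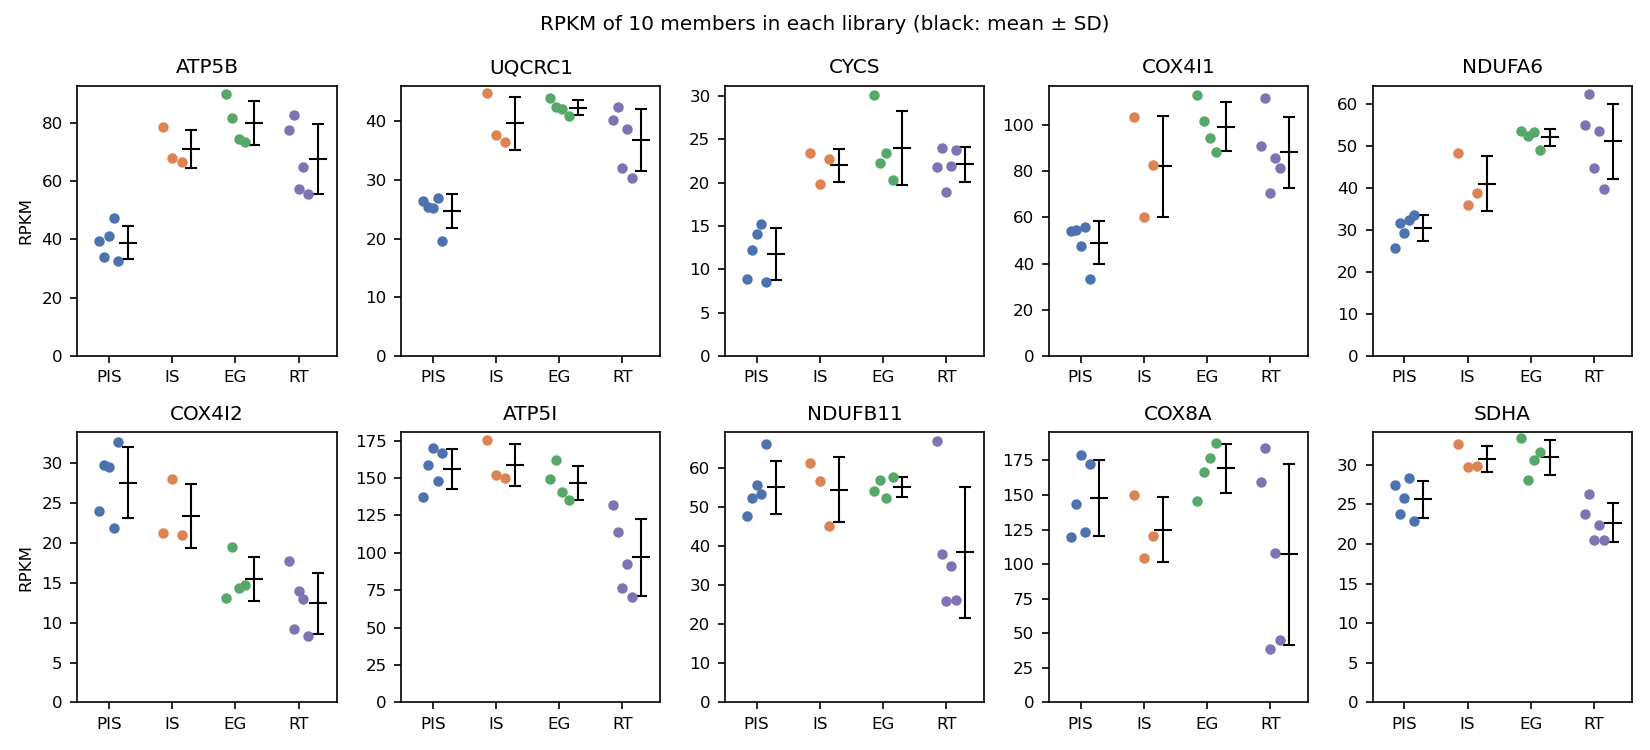
RPKM (y axis, from 0) of 10 members in each library of PIS, IS, EG and RT, with the mean ± SD in black. ATP5B, UQCRC1, CYCS, COX4I1 and NDUFA6 are low in PIS; COX4I2 is low in EG and RT, ATP5I is low in RT, and COX8A and NDUFB11 are spread widely among the RT libraries.

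COX4I2 was the single member called lower in EG than in PIS as deposited, where 42 were called higher. It encodes the alternative form of COX4I1 and is known in mammals from lung and from the mural cells of blood vessels. It was at 13.2, 19.5, 14.4 and 14.8 RPKM in EG, against 24.0, 29.8, 29.6, 22.0 and 32.7 RPKM in PIS. All EG libraries were below all PIS libraries, at -0.82 ± 0.15 on the log2 scale (SE, adjusted p = 0.00109; -1.17 after scaling, adjusted p = 0.000729). IS libraries were at 21.3, 28.1 and 21.0 RPKM. Neither IS against PIS (-0.23, adjusted p = 0.308) nor EG against IS (-0.59, adjusted p = 0.107) was called. In RT it was at 17.7, 9.17, 14.0, 13.0 and 8.28 RPKM, lower than the lamina mean by 0.81 ± 0.16 (adjusted p = 0.000688; after scaling -0.57, adjusted p = 0.0125), and RT and EG ranges overlapped. Smooth muscle and mural markers (6 of 8 in the table, none at 0 throughout) summed to 177 to 399 RPKM in PIS, 110.1 to 163 RPKM in IS, 76.2 to 116 RPKM in EG and 42.5 to 88.2 RPKM in RT, so that every IS library was already below every PIS library. Endothelial markers (10 of 10 in the table) summed to 81.2 to 186 RPKM in PIS, 65.0 to 81.9 RPKM in IS, 39.0 to 74.8 RPKM in EG and 13.7 to 55.1 RPKM in RT. The part of these cells in the COX4I2 difference was not tested.

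Per length, COX4I2 stood at 0.596 ± 0.232 of the COX4I1 level in PIS (SD, n = 5), 0.309 ± 0.140 in IS (n = 3), 0.157 ± 0.032 in EG (n = 4) and 0.146 ± 0.053 in RT (n = 5). PIS replicate 5 had the highest ratio, 0.981, and the other PIS libraries lay from 0.394 to 0.618. Replicate 5 also had the highest smooth muscle and mural (399 RPKM) and endothelial (186 RPKM) sums of PIS. The EG ratios (0.116 to 0.192) were below every IS ratio (0.206 to 0.468) and every PIS ratio. A ratio within a library is free of its scale. On the log2 scale EG differed from PIS by -1.87 (two-sided exact permutation test, p = 0.00794, the smallest this design allows) and from IS by -0.91 (p = 0.0286, again the smallest). RT differed from the 12 lamina libraries pooled, not from the mean of the stage means, by -1.18 (exact permutation p = 0.0233). That permutation did not keep the lamina stages apart. IS differed from PIS by -0.96 (exact permutation p = 0.0714), and RT from EG by -0.17 (exact permutation p = 0.619). With Benjamini-Hochberg adjustment over the 10 ratio tests made, none passed 0.05 (0.0715 for the first 3). COX7A1, the muscle-type form of COX7A2, was at 0.116 ± 0.021 of the COX7A2 level in EG and 0.191 ± 0.052 in PIS (log2 difference -0.70, exact permutation p = 0.0238, adjusted 0.0715). RT (0.0928 to 0.16) and EG (0.0944 to 0.143) overlapped in that ratio. Both ratios were chosen after the values were seen.

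**Figure D5:**
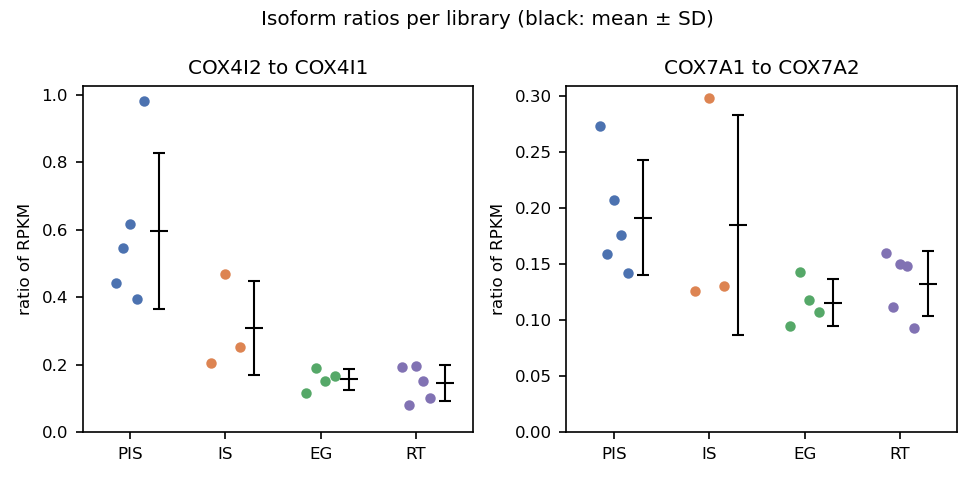
Ratio of RPKM of COX4I2 to COX4I1 (left) and COX7A1 to COX7A2 (right) in each library (y axes from 0), with the mean ± SD in black. The COX4I2 ratio is 0.116 to 0.192 in EG and 0.394 to 0.981 in PIS; the high IS point in both panels is IS replicate 2.

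Across the 17 libraries, after scaling, members of complex V varied together most closely, with a median pairwise Pearson's r of 0.562. The same median was 0.346 in complex I, 0.39 in complex III, 0.387 in complex IV and 0.0285 among the 4 members of complex II. The median r to members of other complexes was 0.406 for complex V, 0.308 for I, 0.354 for III and 0.34 for IV, so that only in complex V did the 2 medians differ by more than 0.1 in favour of its own members. In complex II the order was the other way, with a median r of 0.285 to members of other complexes. SDHA (r = -0.427), COX4I2 (-0.262), ATP5S (-0.217) and ATP5I (-0.0464) had negative correlations with the mean of the other members, while ATP5L (0.913) and COX6A1 (0.881) followed it most closely. These are descriptions over libraries that share group, depth and scaling, with no test.

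Other mitochondrial genes were followed through lists of assembly factors, TCA cycle enzymes, regulators of mitochondrial biogenesis, and import components and inner membrane carriers. In EG against PIS, 15 of 34 assembly factors, 10 of 15 TCA enzymes, 7 of 15 regulators and 20 of 27 import and carrier genes were higher and 0 of each were lower. The share of all genes higher was 42.9%, close to that of the assembly factors and the regulators. After scaling, 6, 3, 1 and 9 of them were higher and 0, 2, 1 and 1 lower, beside 16.1% and 16% of all genes. In IS against PIS, 9, 5, 3 and 16 were higher and 0 lower as deposited, beside 22.7% of all genes higher. After scaling, 0, 1, 0 and 2 were higher and 0, 0, 1 and 0 lower, beside 6.09% and 5.64% of all genes. TIMMDC1, a complex I assembly factor, averaged 12.9 ± 1.0 RPKM in EG and 6.83 ± 1.22 RPKM in PIS (SD, n = 4 and 5; log2 fold change 0.88, adjusted p = 0.000356; 0.54 after scaling, adjusted p = 0.00728). TFB1M, a methyltransferase of mitochondrial ribosomal RNA, rose by 1.22 (adjusted p = 0.000826) and TIMM17A, of the inner membrane translocase, by 0.87 (adjusted p = 0.000182).

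Of the regulators usually linked to respiratory gene expression, TFAM, which packages mitochondrial DNA, averaged 13.8 ± 1.2 RPKM in EG and 9.13 ± 1.74 RPKM in PIS (0.58, adjusted p = 0.00726; 0.23 after scaling, adjusted p = 0.263). NRF1, a transcription factor of respiratory genes, averaged 4.18 ± 0.44 RPKM in EG and 2.91 ± 0.37 RPKM in PIS (0.46, adjusted p = 0.0106; 0.14 after scaling, adjusted p = 0.399). PPARGC1A, a coactivator of transcription factors such as NRF1, was at 0.283 to 1.38 RPKM in EG and 0.265 to 2.88 RPKM in PIS. The difference was not called (-0.08, adjusted p = 0.872). In RT against dental lamina, 9 of 34 assembly factors, 4 of 15 TCA enzymes, 7 of 15 regulators and 8 of 27 import and carrier genes were lower, and 0, 0, 0 and 1 higher, beside 36.3% of all genes lower and 10.5% higher. After scaling the counts were 0, 3, 0 and 6 lower and 7, 6, 0 and 5 higher, beside 18% of all genes lower and 19.6% higher. SLC25A6, an ADP/ATP carrier that supplies ATP synthase with ADP, was at 233, 161, 108, 109.6 and 77.2 RPKM in RT, against 273 to 369 RPKM in PIS, 309 to 350 RPKM in IS and 278 to 330 RPKM in EG. All RT libraries were below all lamina libraries, and it was lower under both scalings (-1.27, adjusted p = 5.9e-05; -1.02 after scaling, adjusted p = 0.000101).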

How the data were processed

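RPKM values of 17 libraries were used as deposited by the authors, 1 column per sample. The submitters' processing notes name TopHat2 2.1.0 and Partek 3 without saying what each did. Genome build, annotation, strand and the handling of reads shared by near-identical genes: not given in the sources used here. There are no counts, hence no counting error, and depth is taken from the table's own line of alignments. The authors' RPKM were turned into log2(RPKM + 0.5). Group means were fitted in R 4.3.3 by limma 3.58.1 with a trended empirical Bayes step, over genes reaching 1 RPKM in 3 or more libraries. The 12684 genes of a fit of dental lamina gave IS vs PIS, EG vs IS and EG vs PIS, and the 12904 genes of a fit of all 17 libraries gave RT vs the mean of the stage means, RT vs EG and the F test. The threshold for a call was 0.05 after Benjamini-Hochberg adjustment across the whole fit. Median-ratio factors came from filtered genes above 0 in every library. The members, lists, markers and ratios were chosen with earlier results of these data known, so they are not independent evidence. Named with fold change and p were called members that, within a complex, had the smallest p or the greatest rise or fall, called anchor subunits, the called gene of each other list with the smallest p, and PPARGC1A, TFAM and NRF1; others are said to be named after their values were seen. Results of 2 genes that the rule names are not reported here. On simulated data, the fits recovered 73% of log2 changes of 1 and 96% of changes of 2 in EG vs PIS (72% and 94% in RT vs EG). The simulation drew noise separately for each gene, changed 100 genes by each amount and shifted no library as a whole. Its rates hold for that setting only and are not the power of these fits for the members. Alternatives were pseudocounts of 0.1 and 1, no filter, a mean RPKM of at least 5, other scalings, array weights, no trend, other libraries in the fit, each library omitted in turn and the replicate number as a block. Leaving out RT replicates 3 and 5 or PIS replicates 4 and 5 together, and the alternatives for the isoform ratios and the differences between complexes, were chosen after seeing the data.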

Additional observations from a re-analysis of the deposited data

Results flagged for a closer look

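Dixon's criterion was applied to 111 sets of values, each from a group of 4 or 5 libraries. A set was 1 of 32 named members or the median deviation of 1 complex. In 4 of the 111 sets, all of them members, 1 library stood apart from the others. Chance gives about 1 in 20 (5%). NDUFS1 was at 13.9 RPKM in EG replicate 2, against 17.2 to 17.8 in the other EG libraries. NDUFV1 was at 15.3 RPKM in PIS replicate 2, against 18.9 to 19.6 in the other PIS libraries. UQCRC1 was at 19.6 RPKM in PIS replicate 5, against 25.2 to 27.0 in the others. UQCRQ was at 16.2 RPKM in PIS replicate 3, the library with the fewest alignments, against 10.4 to 11.1 in the others.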

How the results depend on the processing

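Scaling decided most counts of called members. After median-ratio scaling, 4 members were called in IS vs PIS (median -0.00588), 13 in EG vs PIS (0.0183), 27 in RT vs dental lamina (0.178), 6 in RT vs EG (0.13) and 28 by the F test. In the same order, 11.7%, 32.1%, 37.6%, 15.7% and 47.7% of all genes were called. After quantile normalization 6 were called in IS vs PIS (median 0.0828, 12.2% of all genes) and 21 in EG vs PIS (0.149, 31.7%). RT vs EG had 2 (-0.0466, 16.5%) and the F test 29 (48.2%). In RT vs dental lamina 13 were then higher and 8 lower (36.8% of all genes called), against 3 higher and 14 lower as deposited. Array weights gave 18 in EG vs IS (25% of members, 31.7% of all genes) and 39 in RT vs EG (54.2% and 68.2%). Fits of only the groups compared gave 15 in IS vs PIS (20.8% and 12.2%) and 1 in EG vs IS (1.39% and 7.6%). Without RT replicates 3 and 5, 8 were called in RT vs dental lamina (median 0.114, 24.6% of all genes) and 1 in RT vs EG (-0.082, 11.9%). Of 53 named results, scaling kept the call of 17 and took it from 36, of which 5 turned in sign: SDHA (-0.0883) and SDHB (-0.0287) in EG vs PIS, and COX5B.1 (0.0485), UQCRC2 (0.0206) and UQCRH (0.0314) in RT vs EG. Pseudocounts of 0.1 and 1 and the filter at a mean RPKM of 5 kept all 53. The cause of the changes was not tested.

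With 1 library left out at a time, counts ranged from 6 to 26 in IS vs PIS (median member 0.213 to 0.339), 0 to 0 in EG vs IS (0.0241 to 0.169), 34 to 48 in EG vs PIS (0.338 to 0.416), 10 to 22 in RT vs dental lamina (-0.164 to -0.0015), 4 to 27 in RT vs EG (-0.335 to -0.191) and 37 to 52 by the F test. Of all genes, 7.75% to 26.5% were called in IS vs PIS and 0.547% to 3.48% in EG vs IS in these fits. The same share was 37.8% to 51.8% in EG vs PIS and 36% to 50.9% in RT vs dental lamina. It was 30.1% to 49.3% in RT vs EG and 59.7% to 71% by the F test. The lowest member counts came without IS replicate 1 in IS vs PIS and without RT replicate 3 in RT vs dental lamina. The log2 ratio of COX4I2 to COX4I1 in RT vs EG ranged from -0.308 to 0.0152 (positive without RT replicate 2), and the ratio of COX7A1 to COX7A2 in IS vs PIS from -0.543 to 0.0799 (positive without PIS replicate 1, IS replicate 1 or IS replicate 3). Neither had an unadjusted exact permutation p under 0.05, and no ratio had an adjusted one under 0.05. Both ratios were chosen after the values were seen, so the omissions that follow are not independent evidence. The ratio of COX4I2 to COX4I1 in EG vs PIS kept an unadjusted exact permutation p under 0.05 in all 9 omissions. In RT vs dental lamina the same ratio lost it in 2 of 17. In EG vs IS it was lost in 7 of 7, where 1 library fewer allows no p under 0.05. The ratio of COX7A1 to COX7A2 in EG vs PIS lost it in 7 of 9. With the replicate number as a block, 9 members were called in RT vs EG (12.5%, beside 36% of all genes), and 46 of 53 named results kept their call. The numbers share only a number: 8 of 22 same-numbered pairs correlated above 0.1 (-0.476 to 0.358). RPKM without counts gives no counting error, so differences of low members such as COX6A2 cannot be judged.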
